A study of Mus musculus with 28 samples.

Results

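The livers of 6 A3B mice (numbered 44, 48, 49, 125, 137 and 153) and of 2 control mice (45 and 168) were profiled by RNA sequencing and quantified per transcript with kallisto, and they are 8 of the 28 samples of the series. They were chosen by their labels and by the kind of file deposited for them. A3B mice, labelled A3B + CAGS-rtTA, carried human APOBEC3B fused to turboGFP behind a tetracycline operator at the ColA1 locus, together with a CAGs-rtTA3 transgene that drives the transactivator in most tissues. Control mice, labelled A3B, carried the same inducible construct without the transactivator. By their labels all 8 mice received food with 625 ppm doxycycline for 10 days, although the study also describes its controls as untreated in places, and neither age nor sex is in the labels. A3B mice were taken at a humane endpoint and control mice were sacrificed, so the state of dying animals, their feeding and the hour of collection cannot be told apart from expression of the transgene. The transgene is human and was not in the mouse transcript files, so its level was not checked here.

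APOBEC3B is a cytosine deaminase of the APOBEC3 family, which normally restricts viruses and can mutate single-stranded DNA. The liver is made mostly of hepatocytes, which secrete plasma proteins, synthesise lipids and bile acids, clear drugs through cytochrome P450 and conjugating enzymes, and release glucose during fasting. Many of these programmes follow hormones: glucocorticoids and insulin set fasting metabolism, pulsatile growth hormone sets the differences between male and female liver, and the circadian clock times much of the rest. Genes of cholesterol synthesis and uptake are only counted here, since the question addressed was what changed beyond them. The list used for them also holds some fatty acid genes, such as Scd1, Fads1 and Fads2, which are therefore counted with it.

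Total estimated counts ranged from 65161064 to 98780481 in the A3B livers and were 118976013 and 104834346 in the controls. Hepatocyte markers, fitting the labelled tissue, had a summed level of 57150 to 135006 TPM (transcript abundance scaled to transcript length and library size) in the A3B livers against 197178 and 143087 TPM in controls 45 and 168. Across 6853 genes the controls correlated with each other at a Spearman rho of 0.941, whereas A3B 49 and A3B 48 had a median rho of 0.729 and 0.764 with the other A3B livers and the remaining 4 had 0.845 to 0.880. These are descriptions across genes, which are not independent. In A3B 48, mitochondrially encoded genes took 21.5% of all counts, against 3.30% to 10.1% in the other A3B livers and 3.0% and 3.58% in the controls, and retained-intron transcripts took 3.53% against 1.59% to 2.13% and 1.30% and 1.20%. Y-linked Ddx3y and Eif2s3y were present in A3B 125, 137 and 153 and in control 168, and were at 6 counts or fewer in A3B 44, 48 and 49 and in control 45, so the 2 controls appear to be 1 male and 1 female. Uty split the livers in the same way (450 to 849 counts against 5 to 53), but Kdm5d did not, with 1297 counts in A3B 48 and 521 in A3B 44 against 1052 in control 168.

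Of 17365 genes tested with edgeR's quasi-likelihood test after trimmed mean of M values (TMM) scaling, 218 rose (1.26%) and 418 fell (2.41%) in A3B livers at a Benjamini-Hochberg adjusted p under 0.05. The cholesterol list supplied 16 of the falls and none of the rises, which left 218 genes higher and 402 lower outside it. Those 16 include the fatty acid desaturase genes Fads1, Fads2 and Scd1 and the acetyl-CoA synthetase gene Acss2, which the list also holds. In 617 of those 620 genes no A3B liver overlapped either control, a separation that held for 15.0% (higher) and 12.8% (lower) of all genes tested. The number of calls depended on single livers: 216 genes were called without A3B 44, 1124 without A3B 48, 1599 without A3B 49, 377 without A3B 125, 178 without A3B 137, 74 without control 45 and 73 without control 168. Each of the 636 genes kept its direction in all of those fits, but genes called without overlap can hardly change side when 1 liver is left out. Of 77 called genes that the naming rule chose, 57 lost the call without control 45 and 60 without control 168, when a single liver stood for its group. The 10 that were called in every alternative included Sult1e1, Defb1, Slco1a1, Cyp1a2, Cmah, Srebf1, Cyp2j5, Cyp2c70 and Ugt2b38. Nothing in the labels says whether the mice of a group shared a litter or a day, and in bulk tissue fewer cells of a type and less RNA per cell cannot be told apart.

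The first of the 12 largest rises by fitted fold change was Tceal5, a transcription elongation factor-like gene on the X chromosome. It reached 2.71, 11.3 and 26.6 CPM (counts per library size after TMM scaling) in the lowest, median and highest A3B liver, and the controls held 2 reads and 0 reads. Set against a floor of 3 counts per control library, its mean was at least 376-fold higher, and its rank rests on control counts near 0. Sult1e1 (chr5:87575969-87591594), the sulfotransferase that inactivates oestrogens, stood at 73.1, 176 and 231 CPM in the lowest, median and highest A3B liver against 0.346 and 0.0497 CPM in controls 45 and 168. Its log2 fold change was 9.68 ± 0.99 (standard error, adjusted p = 0.00371 by edgeR), and the lowest A3B liver was far above both controls. Lcn2 (chr2:32384633-32388252) encodes lipocalin-2, an iron-siderophore binding protein released during infection and liver injury. It measured 336, 767 and 1579 CPM against 8.10 and 3.93 CPM, a mean 148-fold higher (log2 7.21 ± 0.88, adjusted p = 0.00525 by edgeR). Defb1, an antimicrobial beta-defensin, lay between 30.3 and 127 CPM in the A3B livers and at 0.985 and 0.621 CPM in the controls, with a log2 fold change of 6.64 ± 0.68 and an adjusted p of 0.00371 by edgeR.

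Among the other large rises, Pdk4, the kinase that shuts off pyruvate oxidation in fasting, was at 43.9 to 349 CPM in A3B livers and at 6.48 and 2.39 CPM in controls (mean 44.4-fold higher). Plin4 and Hilpda, both lipid droplet proteins, were 30.6-fold and 19.8-fold higher, with Plin4 at 24.3 to 202 CPM against 4.6 and 1.57 CPM. Akr1b7, an aldo-keto reductase, rose 21.2-fold, from 1.98 and 0.547 CPM to a median of 24.7 CPM. Cdkn1a, the p21 inhibitor of cyclin-dependent kinases, measured 89.9, 193 and 270.3 CPM in the lowest, median and highest A3B liver against 12.6 and 3.27 CPM, and Gadd45b, a stress-induced growth arrest gene, had a median of 29.6 CPM against 1.5 and 1.29 CPM. The remaining members of the 12 largest rises were Fam107a, 40.9-fold higher, and Tuba8, an alpha-tubulin, 23.8-fold higher. Fam107a was no longer called without A3B 44, A3B 125, A3B 137 or either control, with limma on TPM or with no filter on low counts.

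Among the 12 largest falls was Slco1a1 (chr6:141907282-141946962), an organic anion transporter of hepatocytes, which dropped from 504 and 554 CPM in controls 45 and 168 to 2.38, 3.89 and 12.3 CPM in the lowest, median and highest A3B liver. The mean was 109.6-fold lower (log2 fold change -6.78 ± 0.57, adjusted p = 0.00296 by edgeR), and this call survived all alternatives tried. Dio1 (chr4:107291465-107307169), the deiodinase that activates thyroid hormone, went from 179 and 191 CPM to between 0.710 and 6.53 CPM, the highest value being in A3B 48. Cyp1a2, the P450 that metabolises caffeine and a marker of hepatocytes around the central vein, measured 4.39 to 39.7 CPM against 978 and 1158 CPM (log2 fold change -5.99 ± 0.80, adjusted p = 0.00725 by edgeR). Car3, a carbonic anhydrase abundant in mouse liver, spread over 2.28 to 119.4 CPM in A3B livers, still below 1492 and 1941 CPM in the controls. Without A3B 44, 125 or 137 or either control, with the Y-linked covariate described below or with no filter on low counts, the Car3 call was lost.

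The other members of this set were 6 further genes and 2 major urinary protein genes that are described with their family. Slc22a7, an organic anion transporter, was 31.7-fold lower, and Cyp2c23, an arachidonic acid epoxygenase, 27.6-fold lower. Cmah, which makes N-glycolylneuraminic acid, was 26.1-fold lower at 2.05 to 13.2 CPM against 191 and 165 CPM. The 3 genes that follow also differed widely between the 2 controls. Ugt1a5, a glucuronosyltransferase, was at 358 and 55.8 CPM in controls 45 and 168 and at 2.07 to 13.2 CPM in A3B livers. Hsd3b2, a steroid dehydrogenase, was at 43.4 and 149 CPM against 0.668 to 10.0 CPM. Cyp2g1 was at 13.9 and 5.34 CPM against 0.115 to 0.926 CPM.

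**Figure D1:**
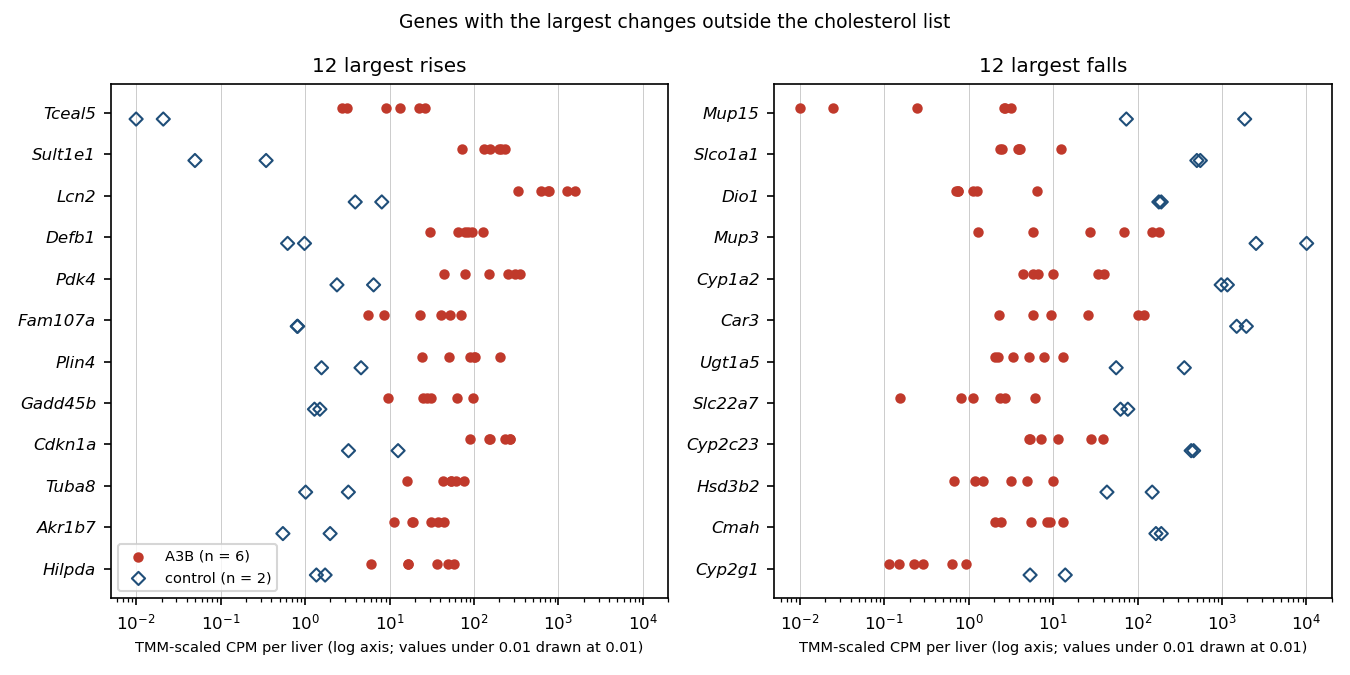
TMM-scaled CPM on a log axis for the 12 genes with the largest rises and the 12 with the largest falls outside the cholesterol list, 1 filled point for each of 6 A3B livers and 1 open diamond for each of 2 control livers. Only genes with every A3B liver on one side of both controls were eligible, for example Slco1a1 at 12.3 CPM or less against 504 and 554 CPM.

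How many genes appeared to rise depended on the scaling. The controls had TMM factors of 0.808 and 0.779 and the A3B livers 0.931 to 1.29. When each library was scaled by its total count alone, 879 genes were higher (5.06%) and 241 lower (1.39%), and outside the cholesterol list 879 and 228. The share of calls that were higher moved from 34.3% to 78.5%, and over every gene in the test the central log2 fold change (the median) went from 0.21 to 0.67, a shift of 0.46. All 218 genes that rose with TMM were also called higher with total counts, 235 of the 418 lower genes (56.2%) were also called lower, and no gene changed side. Changes below are given with TMM scaling and can be read against the median of all genes. Counts in the lists below stand against 1.26% of all genes called higher and 2.41% called lower, so a single call in a list is a value of that gene and not a result about the list. With total-count scaling 7 lists without a call gained 1 each: Sdsl, Esrra, Sesn2, Creld2, Rbm47 and Hsd17b13 were called higher and A1bg lower.

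**Figure D2:**
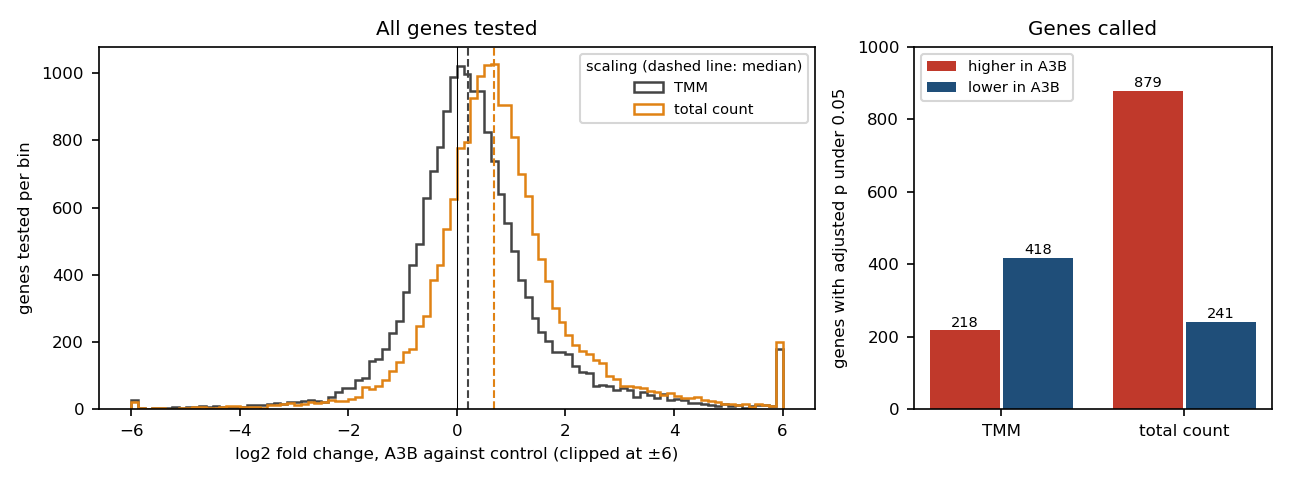
Left, number of genes per bin of log2 fold change (A3B against control, 17365 genes) with TMM and with total-count scaling, dashed lines marking the medians of 0.21 and 0.67. Right, bars from 0 give the genes called higher and lower, 218 and 418 with TMM and 879 and 241 with total counts.

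The make-up of the libraries was compared by 12 shares of counts, none of which passed after adjustment. Secreted hepatocyte proteins such as albumin took 6.92% to 14.4% of counts in A3B livers and 23.4% and 16.5% in controls 45 and 168, and major urinary proteins took 0.00243% to 0.203% against 1.11% and 7.86%. The groups did not overlap for either share, and each gave p = 0.0357 in a two-sided exact permutation test, the smallest that 6 against 2 livers allow, or 0.107 after adjustment over 12 shares. Transcripts annotated for nonsense-mediated decay (means 1.84% and 1.53%) and processed pseudogenes (0.588% and 0.259%) reached the same p with higher shares in A3B livers. Retained introns made up 2.19% ± 0.69 (SD, n = 6) of counts in A3B livers, against 1.25% ± 0.07 (SD, n = 2) for the control pair, an exact permutation p of 0.179. The groups did not overlap here either, at 1.59% to 3.53% against 1.30% and 1.20%. The test compares group means, and A3B 48 lay far above the other A3B livers. Shares of processed transcripts and of cytosolic ribosomal proteins were also higher in every A3B liver than in both controls.

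Fatty acid synthesis is controlled together with cholesterol synthesis. Of 18 genes of de novo lipogenesis, 9 fell and none rose, and 17 of the 18 fold changes were negative, with a median of -1.71. Srebf1, the transcription factor that turns on this programme after feeding, was at 20.5, 31.7 and 43.7 CPM in the lowest, median and highest A3B liver and at 576 and 222 CPM in controls 45 and 168 (log2 fold change -3.65 ± 0.38, adjusted p = 0.00387 by edgeR). Its call was kept in every alternative tried. Aacs, which activates acetoacetate for lipid synthesis, was 8.95-fold lower, and Slc25a1, the mitochondrial citrate exporter, 3.36-fold lower at 61.9 to 105 CPM against 273 and 261 CPM. Fasn, fatty acid synthase, was 10.1-fold lower on the mean, although its controls differed widely at 1119 and 228 CPM. Mlxipl, Pklr, Me1, Elovl5 and Elovl6 made up the rest of the called members.

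Of 30 genes of fatty acid oxidation and PPAR alpha targets, 2 rose and 2 fell, and the median log2 fold change was -0.07, or 0.37 with total-count scaling. Besides Pdk4, the fatty acid omega-hydroxylase Cyp4a14 rose 6.09-fold, to 1944 to 4652 CPM from 489.6 and 523 CPM. Acaa2, a mitochondrial thiolase, fell 2.99-fold. The Acaa2 call was lost with total-count scaling (adjusted p = 0.0627 by edgeR). Among 20 genes of lipid droplets and triglyceride handling, Plin4, Hilpda and Plin5 rose, Fitm1 and Mgll fell, and 16 had a positive fold change (median 0.92). Plin5, a perilipin that tethers droplets to mitochondria, lay at 136 to 338 CPM against 56.1 and 46.6 CPM, while Fitm1 lay at 0.630 to 2.06 CPM against 4.63 and 15.6 CPM. The list of adipocyte markers, which shares the droplet genes Cidea and Cidec, had a summed level of 48.8 to 294 TPM in A3B livers and 38.6 and 29.1 TPM in controls. Its defining hormones Lep and Retn were under 1 TPM in all livers, and Plin1 and Ucp1 likewise. Cidec was at 10.1 to 140.4 CPM against 3.01 and 3.65 CPM without passing the test (adjusted p = 0.0869 by edgeR), and Cidea was at 0 counts in both controls and at most 1.11 CPM in A3B livers.

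Of 21 genes of gluconeogenesis and glycogen, Ppargc1a rose and Gbe1 and Fbp1 fell, with a median of -0.36, or 0.03 with total-count scaling. Ppargc1a, a coactivator induced by fasting, measured 23.7 to 102 CPM against 14.0 and 6.17 CPM, Gbe1, the glycogen branching enzyme, 21.5 to 44.9 CPM against 152 and 97 CPM, and Fbp1, which catalyses a committed step of gluconeogenesis, 193 to 488 CPM against 1362 and 887 CPM. The Fbp1 call was lost with total-count scaling, with limma on TPM, with no filter on low counts and without A3B 44, 125, 137 or 153. The Ppargc1a call was also lost without any 1 of those A3B livers. In the glycolysis and hypoxia list, 1 of 24 rose and 1 fell, too few to tell from the share over all genes: the glucose transporter Slc2a1 was 3.15-fold higher and Aldoc 5.56-fold lower. No gene of 13 in the urea cycle list passed the test, where Glud1 and Glul had log2 fold changes of -1.16 and -1.62. None of 35 amino acid catabolism genes passed either, with Sdsl at 1.55 (adjusted p = 0.0505 by edgeR) and Kynu at -1.27.

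The list of cytochrome P450 drug metabolism had 4 falls and no rise among 32 genes, with a median of -1.98. Beside Cyp1a2, Cyp2j5 was at 22.2, 49.2 and 100.4 CPM in the lowest, median and highest A3B liver against 628 and 644 CPM (log2 fold change -3.63 ± 0.50, adjusted p = 0.00763 by edgeR). Cyp2c70, which makes the muricholic acids of mice, lay at 28.0 to 124 CPM against 584 and 619.8 CPM, and Cyp3a11, the main drug-metabolising P450 of mouse liver, at 237 to 956 CPM against 2312 and 5569 CPM. Phase II conjugation had 10 falls and no rise among 41 genes (median -1.06). Ugt2b37 and Ugt2b38, glucuronosyltransferases, fell to 0.242 CPM or less and 0.140 CPM or less in all A3B livers from 14.4 and 2.76 CPM and from 2.19 and 17.1 CPM. These 2 genes have close paralogs, between which reads can be split wrongly. Ugt2b1, Ugt1a5, Ugt1a9, Gstm4, Gstm6, Gsta3 and Mgst1 were also among the members that fell. With total-count scaling 7 of the 10 were still called and Gsta2 and Sult1d1 were called higher.

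In bile acid synthesis and transport, 5 of 22 genes fell and none rose (median -0.63). They were Slco1a1 and Slco1b2, uptake transporters, Abcb11, the bile salt export pump, Hsd3b7, a dehydrogenase of bile acid synthesis, and Baat, which conjugates bile acids. Abcb11 was at 106 to 236 CPM against 821 and 593 CPM, and Hsd3b7 at 86.7 to 230.3 CPM against 639 and 655 CPM. Genes of the zone around the central vein were lower as well: all 21 had negative fold changes (median -1.57) and 5 fell, among them Cyp1a2, Gulo, Notum and Axin2. Gulo, the last enzyme of vitamin C synthesis in mice, stood at 29.7 to 129 CPM against 585 and 539 CPM. Axin2 and Notum are targets of Wnt signalling. With total-count scaling the median was -1.07 and 3 of the 21 turned positive. None of 14 periportal genes passed the test, with a median of -0.23 that turned to 0.20 under total-count scaling. Ctsc and Pigr, its members with the smallest p, had log2 fold changes of -1.80 and -2.23.

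Complement had 7 falls and no rise among 24 genes (median -1.20). C8a, a chain of the membrane attack complex, was at 13 to 94.7 CPM against 412 and 961 CPM and Masp1, a protease of the lectin pathway, at 58.9 to 109 CPM against 292 and 231 CPM. Masp1 was not called with total-count scaling (adjusted p = 0.0521 by edgeR). Cfi, C6, C9 and Mbl2 also fell. Among 35 secreted hepatocyte proteins 4 fell, F5 and F11 of the clotting cascade, Serpina6, which carries corticosteroids in blood, and Trf, transferrin, and 33 had negative fold changes (median -0.95). Serpina6 spread most, from 1.04 to 41.3 CPM in A3B livers against 564 and 329 CPM, and F5 was at 114 to 224 CPM against 683 and 605 CPM. Trf was called neither with total-count scaling nor without A3B 44, 125, 137 or 153 or either control. Of 30 acute phase genes 2 rose and none fell (median 0.62): Lcn2 and Il1rn, the interleukin-1 receptor antagonist, which lay at 21.9 to 32.4 CPM against 6.0 and 1.98 CPM. In 4 of the 30 every A3B liver was above both controls, a share near the 15.0% of all genes. Lipc, hepatic lipase, was the single member of 24 apolipoprotein and lipoprotein genes that fell, 10.9-fold, with none rising.

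Of 19 genes that respond to glucocorticoids, 6 rose and none fell (Lcn2, Cdkn1a, Zbtb16, Ddit4, Mt2 and Sgk1), 18 fold changes were positive, and the median was 1.99 against 0.21 for all genes. Zbtb16, a zinc finger factor, was at 72.8, 144 and 181 CPM in the lowest, median and highest A3B liver against 21.9 and 6.76 CPM, with a log2 fold change of 3.18 ± 0.60 and an adjusted p of 0.0247 by edgeR. Ddit4, an inhibitor of mTORC1, was 11.1-fold higher. Fkbp5, a feedback regulator of the glucocorticoid receptor, was at 170.4 to 658 CPM against 108 and 125 CPM and did not pass (adjusted p = 0.0791 by edgeR), but passed with total-count scaling, where 9 members were called. Several of these genes also answer to inflammation or fasting. In the metallothionein and iron list of 25, Tfrc, the transferrin receptor, rose 6.96-fold and Mt2, a zinc-binding metallothionein, 8.28-fold, while Trf fell. Sesn2 led the 24 genes of the integrated stress response, none of which passed, at 1.49 (median 0.63).

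Of 26 p53 targets 4 rose and none fell, 20 were positive, and the median was 0.60. With total-count scaling 6 were called higher. Mdm2, the ubiquitin ligase of p53, was at 53.4 to 104 CPM against 20.4 and 30.2 CPM, Trp53inp1 at 91.8 to 403 CPM against 51.3 and 30.6 CPM, and Rrm2b, a ribonucleotide reductase subunit induced by p53, at 7.46 to 17.6 CPM against 3.02 and 3.02 CPM. None of 28 DNA damage response and repair genes passed, with Atm at -1.67 (adjusted p = 0.0515 by edgeR) and Nbn at 0.72, nor did any of 19 genes of uracil repair and the mouse APOBEC family, where Parp1 was at -0.99 and Rbm47 at 0.94. Ccne2, cyclin E2, was the single gene of 30 in the cell cycle list that rose (9.96-fold), and no cell death regulator of 30 passed, Bmf having a log2 fold change of -2.37. Hspa1b, an inducible Hsp70, fell 8.71-fold, the single call among 24 heat shock genes. Cat, catalase, fell 3.87-fold, the single call among 25 NRF2 antioxidant targets. Of 25 ER folding genes none passed, with Dnajb9 at 1.19 and Creld2 at 1.12.

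Interferon-stimulated genes had 3 rises and no fall among 36, with 27 positive fold changes and a median of 0.79. Usp18, which removes ISG15 from proteins, was at 74.5, 133 and 179.8 CPM in the lowest, median and highest A3B liver against 16 and 9.38 CPM (log2 fold change 3.34 ± 0.43, adjusted p = 0.00687 by edgeR). Ifit1 lay at 36.5 to 58.2 CPM against 15.8 and 6.10 CPM and Mx2 at 12 to 23.8 CPM against 5.19 and 4.46 CPM. Both are antiviral effectors. Among 29 NF-kB targets, cytokines and chemokines, Lcn2 and the neutrophil attractant Cxcl1 rose, Cxcl1 14.6-fold to a median of 14.6 CPM, while Tnf and Il6 were under 1 TPM in all livers. All 27 immediate early genes had positive fold changes (median 1.38), of which Gadd45b passed the test. No antigen presentation gene of 22 passed, H2-Eb1 and Cd74 having values of -2.16 and -1.79.

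Of 33 genes of RNA-binding and splicing factors 4 rose and none fell, 31 were positive, and the median was 0.65. Tra2a and Tra2b, paired activators of exon inclusion, measured 27.0 to 39.4 CPM against 13.5 and 11.0 CPM and 52.7 to 76.0 CPM against 24.3 and 24.4 CPM. Hnrnpa1, a splicing repressor with many processed pseudogenes that can share its reads, was 4.58-fold higher, and Hnrnpd was at 57.7 to 95.0 CPM against 26.0 and 32.0 CPM. With total-count scaling 9 of the 33 were called higher and the median was 1.10. Cytosolic ribosomal proteins had a median of 0.63 with 46 of 50 positive and no member called, Rps15 and Rpl27 both at 0.88, and A3B 49 had the largest share of them (3.90% of counts). Mitochondrially encoded genes were positive in 13 of 13 (median 0.90) with none called, mt-Nd6 at 1.21 and mt-Nd5 at 1.10, and A3B 48 had by far the largest share. Their part in these medians was not tested. Nuclear-encoded respiratory chain genes had a median of -0.19 (0.27 with total-count scaling) with 1 call of 44, Sdhd, which fell 2.38-fold and was not called with total-count scaling. The Sdhd call was also lost with limma on TPM, with no filter on low counts and without A3B 44, 125, 137 or 153. None of 31 proteasome subunits passed (Psmd4 0.71, Psmc5 0.56), nor any of 25 hepatocyte transcription factors, with Onecut2 at -0.96 and Foxa3 at -0.78.

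**Figure D3:**
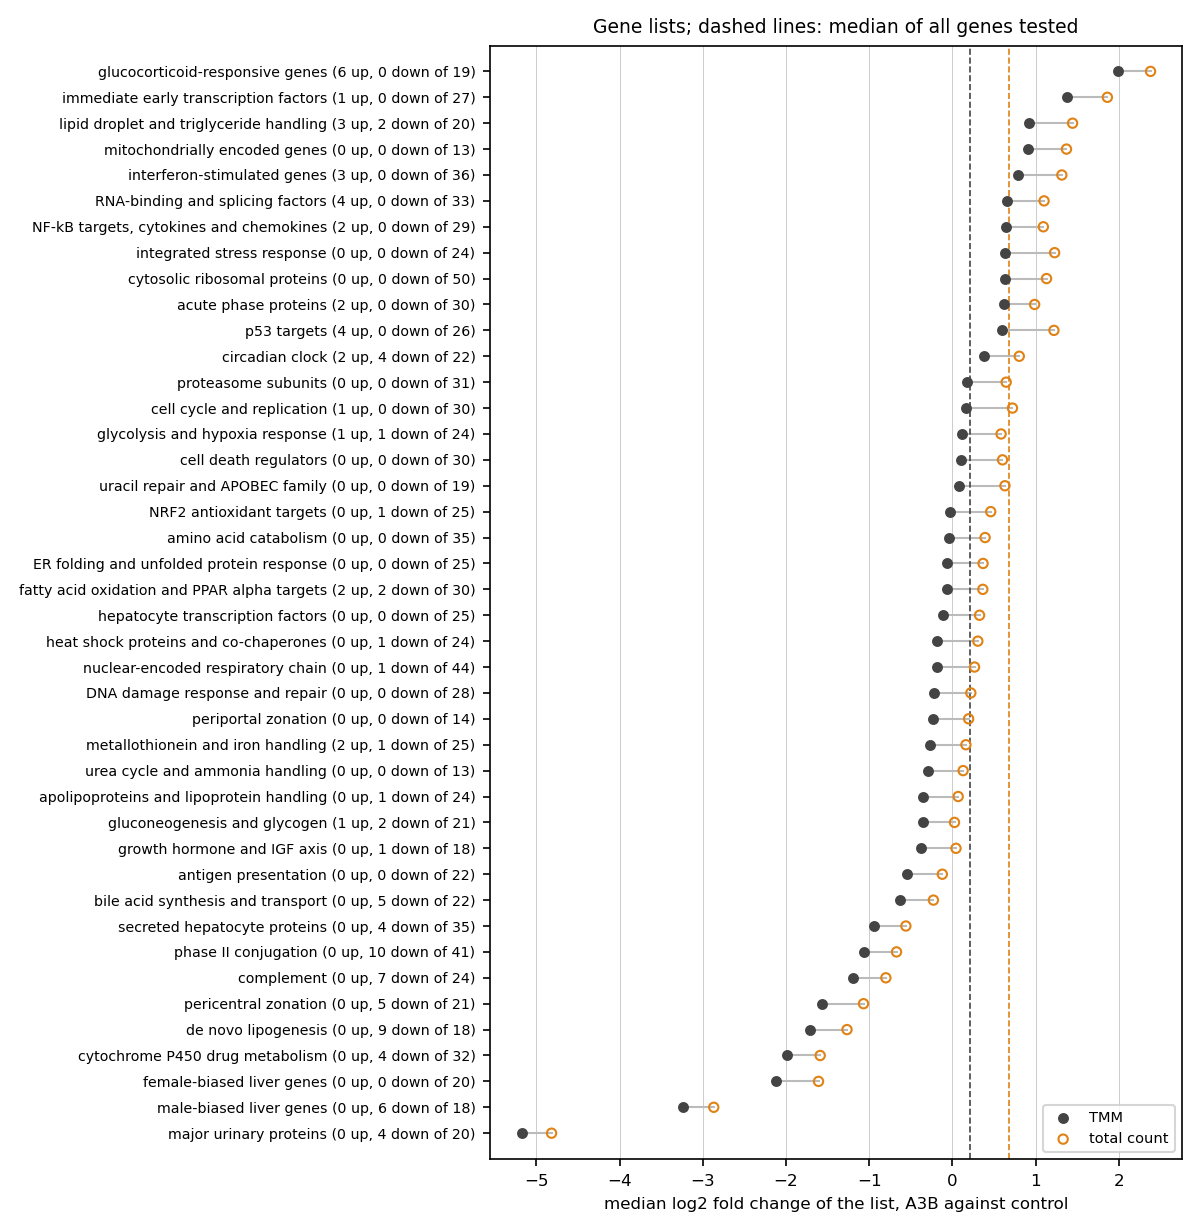
Median log2 fold change (A3B against control) of each gene list, filled points with TMM and open points with total-count scaling, with the number of members called with TMM beside each name and dashed lines at the medians of all genes (0.21 and 0.67). Major urinary proteins are lowest at -5.18 and glucocorticoid-responsive genes highest among the pathway lists at 1.99 with TMM.

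Apparent sex was balanced, with 3 of 6 A3B livers and 1 of 2 controls positive for Y-linked genes, but each control stood alone for its sex. With Y-linked expression as a covariate 183 genes were higher and 391 lower, and 497 of the 636 genes were still called. All 636 kept their direction, which a lack of overlap between groups largely fixes here as well. Among the genes chosen by the naming rule Car3, Ppargc1a, Mup5 and Sdhd lost their call with it. Major urinary proteins are pheromone carriers made mainly in male liver under growth hormone. All 20 tested had negative fold changes (median -5.18), and Mup3, Mup5, Mup12 and Mup15 fell. The Mup3 and Mup15 calls were each lost without A3B 44, 125, 137 or 153 and with no filter on low counts. With the covariate 8 of the 20 were called lower: Mup5 lost its call (adjusted p = 0.0511 by edgeR) and Mup8, Mup11, Mup13, Mup16 and Mup20 gained one. Their summed level was 36.2 to 4005 TPM in A3B livers against 23087 TPM in control 45 and 138530 TPM in control 168. Mup3 was at 1.31, 48.2 and 177 CPM in the lowest, median and highest A3B liver against 2532 and 10056 CPM, and Mup15 at 0 to 3.15 CPM against 73.7 and 1856 CPM. These genes are nearly identical copies, so the split of reads between them is uncertain. Within Y-positive livers all 20 were lower in all 3 A3B livers than in control 168, and within Y-negative livers 17 of 20 were lower in all 3 than in control 45. That separation held for 30.1% of all genes within Y-positive livers and 24.1% within Y-negative livers, and the opposite one for 37.6% and 28.7%.

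Of the genes listed for male bias, all 18 had negative fold changes (median -3.23) and 6 fell, Slco1a1, Ugt2b38, C8a, C6, Cyp2u1 and Susd4. With the covariate 8 were called lower: C6 lost its call (adjusted p = 0.0846 by edgeR) and Cyp7b1, Hsd3b5 and Mup20 gained one. Among Y-positive livers all 18 were lower in each A3B liver than in control 168, and among Y-negative livers 13 were lower and 3 higher than control 45. Cyp7b1, an oxysterol hydroxylase with male bias, was at 0.682 to 16.9 CPM against 26.9 CPM in control 45 and 339.7 CPM in control 168. Its adjusted p was 0.00395 with the covariate and 0.0597 without it by edgeR. Of 20 genes with female bias none passed without the covariate (A1bg alone with total-count scaling), and 3 were lower with it: A1bg, Cyp3a16 (adjusted p = 0.00714 by edgeR) and Cyp2c69 (0.0220). A1bg was at 1148 CPM in control 45, at 0.671 CPM in control 168 and at 3.39 CPM or less in all A3B livers, so its value in the Y-negative A3B livers was nearer the Y-positive control. Its adjusted p was 0.0140 with the covariate. Cyp3a44 followed the same order, 356 CPM in control 45, 0.162 CPM in control 168 and 0.0562 to 10.9 CPM in A3B livers, without a call in either fit. Within Y-negative livers 12 of the 20 were lower in every A3B liver, and within Y-positive livers 3 were lower and 8 higher. With 1 control of each kind these are descriptions without a test. Ghr, the growth hormone receptor, fell to 37.8, 41.8 and 101 CPM in the lowest, median and highest A3B liver from 506 and 482 CPM, the single call among 18 genes of the growth hormone and IGF axis.

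The circadian clock is a loop in which Arntl (BMAL1) and its partner activate E-box genes, Cry and Per proteins inhibit that activation, Nr1d1 represses Arntl through RORE sites, and Dbp acts on D-box sites. Of 22 clock genes 2 rose and 4 fell. Cry1 was at 21.5, 54.6 and 71.5 CPM in the lowest, median and highest A3B liver against 7.15 and 7.51 CPM (log2 fold change 2.84 ± 0.46, adjusted p = 0.0147 by edgeR), and Arntl at 12.7, 29.2 and 51.7 CPM against 5.02 and 6.02 CPM. The lowest Cry1 value, in A3B 49, was still above both controls. Nr1d1 was at 12, 16.5 and 43.8 CPM against 126 and 140.3 CPM (log2 fold change -2.71 ± 0.44, adjusted p = 0.0145 by edgeR), and Dbp at 1.86, 5.22 and 18.2 CPM against 101 and 85.6 CPM. Per3 lay at 5.34 to 15.4 CPM against 47.5 and 22.3 CPM, and Bhlhe41, a repressor that competes at E-boxes, at 0.329 to 0.727 CPM against 1.08 and 7.17 CPM. Per3 was not called with total-count scaling (adjusted p = 0.064 by edgeR), where Rora, Nfil3 and Ciart were called higher. The hour of collection is not given in the sources used here.

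The promoters of these genes are shown because the clock acts through them. RefSeq promoters (GRCm38.p6, 250 bases before to 50 after the start) were found for 18 of the 22 clock genes and searched on both strands for CACGTG (E-box), TTATGTAA (D-box) and TAGGTCA (core of the RORE). Capitals below mark the match, all read 5′ to 3′ on the strand of the gene. The first is from chr4:151044806-151044880 on the minus strand, the second from chr10:85185097-85185126 (minus), the third from chr6:145865556-145865585 (minus) and the fourth from chr7:113207531-113207557 (plus).
Per3: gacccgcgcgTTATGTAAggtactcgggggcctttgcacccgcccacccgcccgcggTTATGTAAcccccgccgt
Cry1: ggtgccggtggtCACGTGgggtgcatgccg
Bhlhe41: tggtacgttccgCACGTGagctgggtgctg
Arntl: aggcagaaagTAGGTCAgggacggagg
The D-box pair of Per3 starts 205 and 158 bases before its start site, and 0.938% of 32851 promoters held this motif. Whether Dbp acts on Per3 was not tested. An E-box was in 7.15% of promoters and in 5 of the 18 clock genes (Bhlhe41, Ciart, Cry1, Per1 and Tef), among which Cry1 rose and Bhlhe41 fell. In the second set of livers, described below, Per3 and Bhlhe41 had positive differences. The RORE core was in 2.61% of promoters and in Arntl and Nfil3. A match describes the letters in the window and nothing about binding.

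Transcripts were also tested one by one. Of 60653 transcripts tested with the same edgeR test, 15 were higher (0.0247%) and 83 lower (0.137%) in A3B livers, 6 of these 98 from cholesterol genes. Gene-level calls covered 79 of the 98. Among the 15 that were higher were Sult1e1-201, Lcn2-201, Defb1-201 and Cyp4a14-202, from genes that rose. With total-count scaling 0 were higher and 3 lower, and with DESeq2 2235 and 1399. By the rule for names (at least 5 TPM in one group, no overlap, gene not called), 6 transcripts were named, and each was lower. The rule asks only that the gene missed the threshold, and no test compared transcript and gene. Gclm-201, from the gene of the glutamate-cysteine ligase modifier subunit in glutathione synthesis, was at 2.63 to 4.53 TPM in A3B livers against 16.7 and 17.3 TPM (log2 fold change -2.79 ± 0.32, adjusted p = 0.0362 by edgeR), while the gene as a whole had -0.92. Ccpg1-202, from a receptor for autophagy of the ER, was at 2.70 to 6.29 TPM against 13.3 and 13.4 TPM, and Pdcd6ip-201, from the gene of the ESCRT protein ALIX, at 3.23 to 5.40 TPM against 13.2 and 11.3 TPM. Rgs3-207, a retained-intron transcript, was at 0.490 TPM or less against 10.4 and 18.4 TPM, and its gene had a log2 fold change of -1.99 (adjusted p = 0.0525 by edgeR). Mup11-203 and Ugt3a1-204 were the other members, and the genes Mup11 and Ugt3a1 had -6.58 and -1.04. None of the 6 passed with total-count scaling (log2 fold changes from -9.21 to -1.41, adjusted p from 0.0814 to 0.151 by edgeR), and all 6 passed with DESeq2.

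The share of a gene's transcripts changed in 217 of 11558 genes by edgeR (1.88%) and in 110 by limma (0.952%), with 61 called by both, 28.1% of the edgeR calls and 55.5% of the limma calls. On simulated data with less spread than these livers the edgeR usage test called unchanged genes too often, so the limma value is given with it. How either test behaves at the spread of these livers was not tested. Of the 217, 29 were also called as genes (13.4%, against 4.24% of all genes in the usage test). In 88 of the 217 a transcript moved by at least 20 percentage points with no overlap of the groups (40.6%, against 9.94% of all genes in the usage test), and 34 of these were called by both tests. The transcript with the largest gain was protein-coding in 50.2% of the called genes and a retained intron in 23.0%, near the 55.3% and 22.5% among all genes tested.

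Dpyd (chr3:118562129-119432924, plus strand), the dihydropyrimidine dehydrogenase that starts uracil and thymine breakdown, had the smallest p of the edgeR usage test. Its full transcript Dpyd-201 held 97.6% and 97.8% of the gene's TPM in controls 45 and 168. In A3B 44, 48, 49, 125, 137 and 153 its share was 23.7%, 25.8%, 76.5%, 22.7%, 4.30% and 13.7%. The short transcript Dpyd-204 held 0.123% and 0.0699% in the controls and 70.3%, 66.1%, 12.2%, 67.9%, 84.9% and 73.0% in the same A3B livers. Thus the short form led in 5 of 6 A3B livers and the full form in A3B 49 and both controls. The usage adjusted p was 1.56e-05 by edgeR and 0.000483 by limma. The level of Dpyd-204 was 0.166 and 0.0705 TPM in the controls and 1.55 to 33.3 TPM in A3B livers, and that of Dpyd-201 was 132 and 98.7 TPM against 1.58 to 12.5 TPM. As a gene, Dpyd fell to a median of 27.2 CPM from 496 and 438 CPM (log2 fold change -3.73 ± 0.45, adjusted p = 0.00512 by edgeR).

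Where the forms part is shown here from the GENCODE M21 transcripts, because the short form is defined by reading on past an exon end. Dpyd-204 has 531 bases in 3 exons and shares 329 of them with Dpyd-201, which has 4492 bases in 23 exons. Its last exon continues for 202 bases beyond the end of the third exon of Dpyd-201, at chr3:118674571, to chr3:118674773. In each 30-base stretch below, capitals begin at the first base that the forms do not share.
Dpyd-201: ccgagaagcagtgagATGCCTGAAGTGCGC
Dpyd-204: ccgagaagcagtgagGTAAGTCTGGGTCAC
The capitals of Dpyd-204 open with GTAAGT, the usual first letters of an intron, so the short form runs into the intron after the third exon. Short-read estimates assign fragments between such overlapping models, and the deposited files hold no junction counts to check them.

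Of the other genes named by the rule, Etfrf1, a regulator of mitochondrial electron transfer flavoprotein, had a mean of 57.0 TPM in A3B livers and 27.3 TPM in controls. Etfrf1-207 held 62.3% and 81.3% of its TPM in controls and 22.3% to 48.1% in A3B livers (adjusted p = 0.000301 by edgeR and 0.00843 by limma). Celf1, an RNA-binding splicing regulator, had 40.1% and 43.6% of its TPM in Celf1-205 in controls and 0.0791% to 26.4% in A3B livers, but the limma test did not call it (adjusted p = 0.192). Ccl25, Dok3, Gm960, Trim13 and Zfp983 were each below 6 TPM on the mean of both groups, where a share rests on little expression.

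Genes called by both tests, with a shift of 20 points and at least 10 TPM in both groups, numbered 14 and were singled out after their values were seen. Gpr108-202, a retained-intron transcript, held 4.43% and 7.66% in controls and 23.0% to 67.3% in A3B livers (limma adjusted p = 0.00469), while the coding Gpr108-201 went from 55.4% and 57.6% to 5.48% to 43.2%. Tmem82-203, also a retained intron, held 11.4% and 12.1% against 27.2% to 55.2%. Slc17a5, the lysosomal sialic acid exporter, had 96.8% and 98.5% in its coding Slc17a5-201 in controls and 4.56% to 69.7% in A3B livers, where the non-coding Slc17a5-203 took 30.3% to 73.7%. Smdt1, a subunit of the mitochondrial calcium uniporter, showed a gain of the decay-annotated Smdt1-204 from 9.81% and 12.4% to 17.5% to 32.2%. Masp1 moved from its longest form Masp1-201 (61.8% and 65.7%) to Masp1-203 (57.6% to 79.8% in A3B livers). Zwint-204 went from 23.0% and 13.4% to 57.0% to 81.0%, and Fermt2-202 from 37.1% and 37.7% to 0.499% to 7.62%. Srsf10-204, of a splicing factor gene, and H2afy-202, of a histone macroH2A gene, gained as well, from 15.6% and 17.9% to 32.8% to 58.6% and from 24.8% and 20.3% to 34.2% to 64.8%. Naxd, Ccpg1 and Osbpl1a were the remaining members. Dpyd and Etfrf1 kept their call in every fit, whereas the other 12 lost it without control 45 and without control 168 (edgeR adjusted p from 0.153 to 0.927). Smdt1, Srsf10, Masp1, Naxd, Fermt2, Zwint and Ccpg1 also lost it when transcripts needed a mean of 1 TPM, and without A3B 44 Masp1, Naxd, Fermt2, Zwint, Ccpg1, Osbpl1a, Slc17a5 and Tmem82 did. Of the 12, 4 lost it without A3B 125, 5 without A3B 137 and 1, Ccpg1, without A3B 49. A3B 49 was the A3B liver nearest the controls in the leading transcripts of Dpyd, Gpr108, Tmem82 and Slc17a5.

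**Figure D4:**
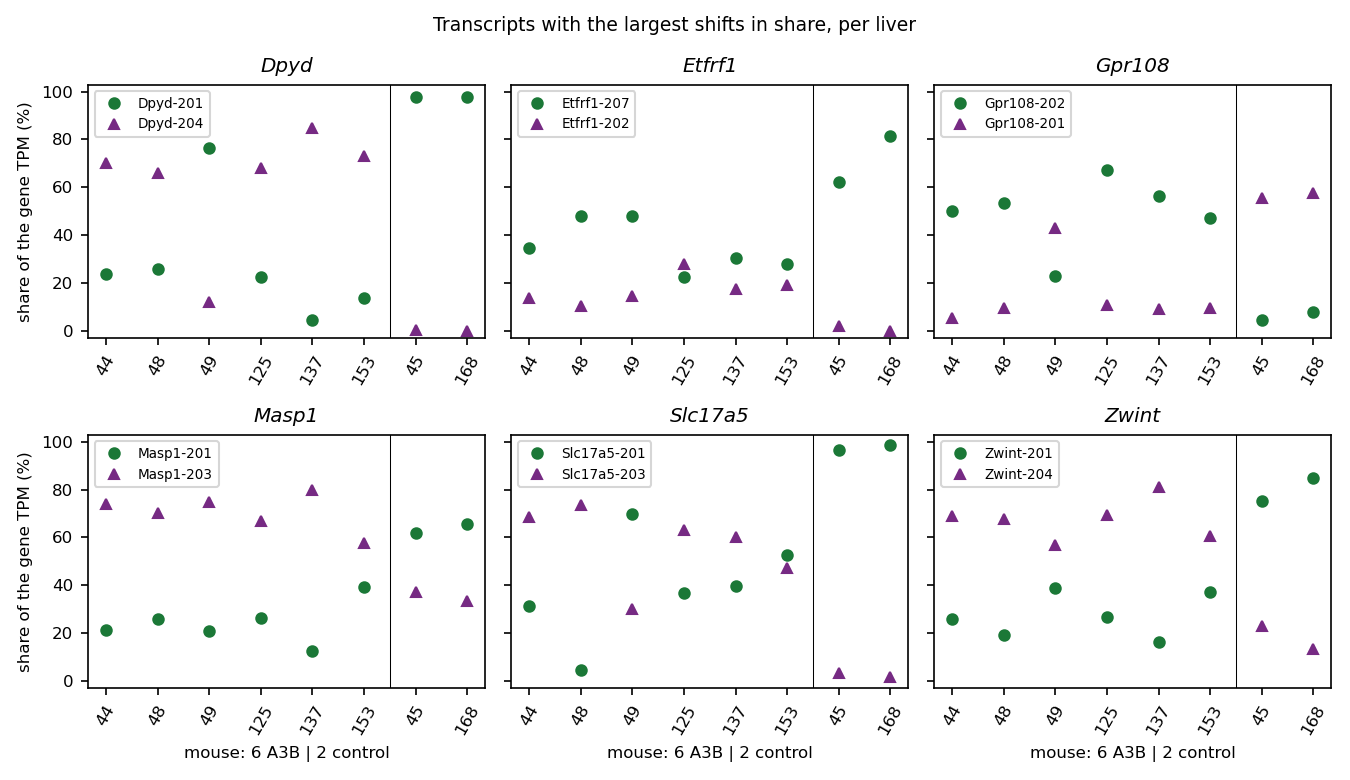
Share of the gene's TPM (percent) held by 2 transcripts of each of Dpyd, Etfrf1, Gpr108, Masp1, Slc17a5 and Zwint in each of 6 A3B and 2 control livers, 1 point per liver and transcript. Dpyd-201 holds 97.6% and 97.8% in the controls and 4.30% to 76.5% in the A3B livers, with Dpyd-204 taking most of the rest.

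Markers of other cell types did not pass the test except in 2 lists. Hbb-bt, a beta-globin, fell 10.5-fold, and 9 of 10 erythroid genes tested had negative fold changes, with a summed level of 137 to 811 TPM in A3B livers and 4372 and 1335 TPM in controls. Cela1, an elastase of pancreatic acinar cells, fell 6.41-fold with TMM and was not called with total-count scaling (adjusted p = 0.0503 by edgeR). Of the 14 acinar markers tested 11 had positive fold changes, with a median of 1.09 (1.53 with total-count scaling). They were uneven, summing to 365 TPM in A3B 44, 807 TPM in A3B 153 and 6.90 to 19.7 TPM in the other A3B livers against 139 and 79.4 TPM in the controls, and Prss1 and Ptf1a were under 1 TPM in all livers. Macrophage and Kupffer cell markers summed to 64.3 to 1971 TPM against 700.1 and 589 TPM, and neutrophil markers to 8.57 to 131 TPM against 8.45 and 6.48 TPM, with Elane, Mpo, Camp, Ltf and Ly6g under 1 TPM in all. For T and NK cells the sums were 8.96 to 46.8 TPM against 14.2 and 10.9 TPM. The highest macrophage, neutrophil and T cell sums were all in A3B 49. Stellate cell markers summed to 61.7 to 415 TPM against 235 and 132 TPM, cholangiocyte markers to 84.0 to 125 TPM against 103.2 and 64.9 TPM, endothelial markers to 86.4 to 364 TPM against 339 and 271 TPM, and B and plasma cell markers to 168 to 460 TPM against 280 and 201 TPM. The part of these cells in the lists above was not tested.

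Without a call, the marker genes with the smallest p had these values. Gpnmb, a lysosomal glycoprotein of macrophages, reached 50.8 CPM in A3B 49 and had a median of 3.76 CPM, against 0.115 and 0.174 CPM, and Spp1 had a log2 fold change of -1.49. Sox9, a factor of bile duct cells, was at 3.95 to 15.4 CPM against 2.48 and 2.55 CPM, and Pkhd1 at -1.84. Fcgr2b and Stab2 of sinusoidal endothelium had -1.16 and -1.29, Reln and Timp1 of stellate cells -1.87 and 3.27, Cxcr2 of neutrophils 2.18, Foxp3 and Cd8a of T cells 1.28 and 1.51, and Pou2af1 and Pax5 of B cells -1.38 and -1.16. Several of these were under 1 CPM.

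A second set of livers, from 3 other A3B and 3 other control mice, was deposited as 1 table of TPM values with its own normalization, and was tested separately with limma on log2(TPM + 1). One of its controls carries the label of the double-transgenic genotype. Doxycycline was given for 15 days in its controls and for 14, 14 and 10 days in its A3B mice, so length of treatment differed between the groups. There 699 of 11507 genes were higher (6.07%) and 214 lower (1.86%). Of the genes outside the cholesterol list that rose in the first set, 154 were tested in the second, where 154 were higher and 110 called (71.4%). For all 10853 genes tested in both sets 67.4% were higher. Of the 340 that fell, 328 were lower in the second set (96.5%, against 32.6% of all) and 90 were called (26.5%). Sult1e1 was at 40.5 to 57.7 TPM in the A3B livers of that set against 0.0705 to 1.33 TPM, and Slco1a1 at 0.864 to 13.3 TPM against 76.3 to 110 TPM. Nr1d1, Cry1, Srebf1, Zbtb16, Usp18 and Ghr were also called in the same direction there, whereas Per3 and Bhlhe41 had differences of 0.50 and 0.97 on the log2 scale, positive where the first set was negative. The calls of that set rest on few mice: 1 gene was higher and 0 lower without control 91, and 7 and 2 without control 92. Without control 11, the one with the double-transgenic label, 1362 were higher and 200 lower. Control 11 was also the one liver of that set with Y-linked Eif2s3y (22.0 TPM, listed at 0 in the other 5), so apparent sex differed between its groups.

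**Figure D5:**
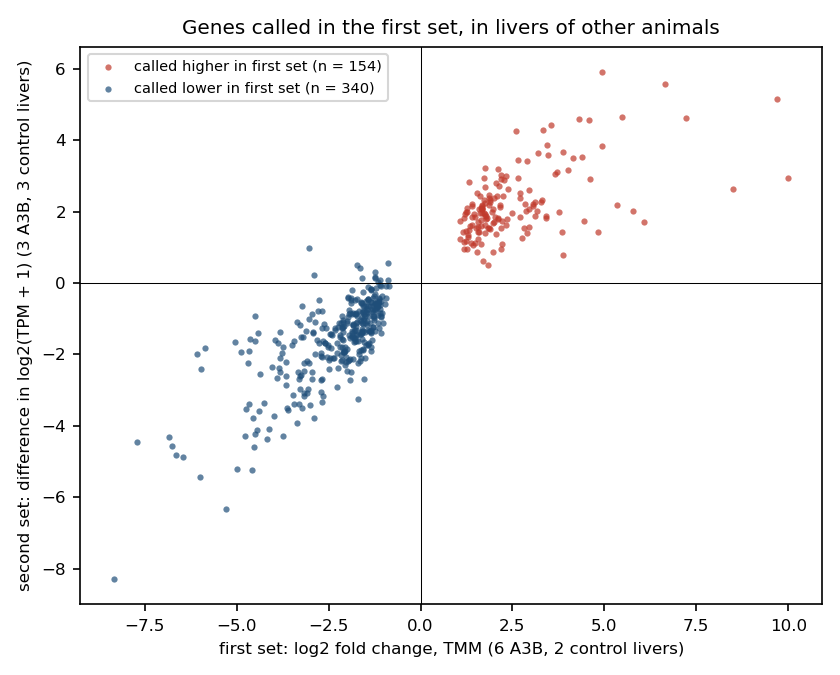
Log2 fold change in the first set of 6 A3B against 2 control livers (horizontal axis, TMM) and difference in log2(TPM + 1) in the second set of 3 A3B against 3 control livers (vertical axis), 1 point per gene called in the former outside the cholesterol list. All 154 genes that rose lie above 0 on the vertical axis, and 328 of 340 that fell lie below it.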

How the data were processed

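RNA from 6 A3B and 2 control livers was sequenced from stranded total RNA libraries. The authors estimated abundance per transcript with kallisto against mouse transcripts (GRCm38/mm10 in the submitters' processing notes), and the deposited files give estimated counts and TPM. Estimated counts were summed over the transcripts of each gene and rounded to whole numbers. Of 119414 transcripts, 116640 were matched to a gene of GENCODE M21 by their identifier, and the 2774 without a gene (0.704% to 1.47% of counts) stayed out of the gene tests. The members and gene lists were chosen with earlier results of these data known.

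Genes and transcripts were tested with edgeR 4.0.16 (R 4.3.3: filterByExpr, TMM, robust glmQLFit and glmQLFTest), with Benjamini-Hochberg adjustment over all features and a threshold of 0.05. Spread was large, with a common biological coefficient of variation of 0.570 for genes and 0.898 for transcripts. CPM values are TMM-scaled, errors of log2 fold changes are standard errors, and mean folds are ratios of group mean CPM. Transcript usage was tested with edgeR's diffSpliceDGE and also with limma 3.58.1. The edgeR test had called unchanged genes too often on simulated data, whose spread was smaller than that of these livers. Library shares were compared by exact permutation. The second set was deposited by the authors as TPM, and limma was run on log2(TPM + 1) over genes that averaged 1 TPM or more. Alternatives were total-count and upper-quartile scaling, TMM without the 100 most abundant genes, DESeq2 1.42.0, limma on TPM, other filters, a Y-linked covariate and leaving out each liver.

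Genes were named by rule: outside the cholesterol list, the 12 largest rises and 12 largest falls among called genes with at least 10 TPM in one group and no overlap, passing over unnamed models and pseudogenes, then up to 3 called members per list or, with none called, the 2 with the smallest p. Transcripts needed a mean of 5 TPM and usage a shift of 20 points, with up to 8 of each. Intervals and floors cover counting error only. No 2 libraries held identical counts. The authors' own comparisons were not used. Values of some named members are not reported here.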

Additional observations from a re-analysis of the deposited data

Results flagged for a closer look

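Among 146 groups of 6 A3B livers examined, 19 had 1 liver farther from the rest than Dixon's 95% critical value allows, where chance gives about 1 in 20. A3B 48 accounted for most of them. It was lowest for Tuba8 (16.2 CPM) and Fcgr2b (11.1 CPM), and highest for Dio1 (6.53 CPM), Ugt2b37 (0.242 CPM), Nbn (43.6 CPM) and Cd8a (2.85 CPM). In the same liver the 10 most abundant genes took 24.8% of counts, protein-coding transcripts 88.2%, retained introns 3.53% and transcripts annotated for nonsense-mediated decay 2.12%, and the summed macrophage and endothelial markers were 64.3 and 86.4 TPM. Without A3B 48, 379 genes were higher and 745 lower, against 218 and 418 with all livers.

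A3B 49 was lowest for Serpina6 (1.04 CPM), Cry1 (21.5 CPM) and Pigr (30.8 CPM), highest for Gpnmb (50.8 CPM) and highest for the share of ribosomal proteins (3.90%). Without it 655 genes were higher and 944 lower. Slco1a1 was highest in A3B 153 (12.3 CPM) and Pkhd1 lowest in A3B 125 (0.882 CPM).

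For 2 genes every liver of a set lay on the opposite side from the other set, and the difference between sets was not tested. Ly6g, a neutrophil marker near 0 in the first set, had a difference of -1.26 on the log2(TPM + 1) scale in the second, and Bhlhe41, which fell in the first set, had 0.97.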

How the results depend on the processing

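No paired analysis was possible because no mouse number is shared between the A3B and control livers. With total-count scaling 879 genes were higher and 241 lower, with DESeq2 1300 and 1096, and with limma on log2(TPM + 1) 549 and 193, against 218 and 418. Leaving out 1 liver at a time gave 3 to 655 higher and 64 to 944 lower. Where 1 control remained, it was assumed to vary like the A3B livers. For transcripts (15 higher, 83 lower), total-count scaling gave 0 and 3, a mean of at least 1 TPM 33 and 150, DESeq2 2235 and 1399, and leaving out 1 liver 0 to 286 and 0 to 739. At an unadjusted p under 0.05, 7595 transcripts passed the edgeR test. Transcript usage was called in 110 genes by limma, in 80 with a mean of at least 1 TPM, and in 32 to 1064 without 1 liver, against 217. The cause of these differences was not tested.

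Of 77 genes that the naming rule chose and that were called, 10 kept the call in every alternative. None of the 77 changed direction, which a lack of overlap between groups largely fixes beforehand. The call was lost by 6 with total-count scaling (Acaa2, Fbp1, Masp1, Trf, Sdhd and Cela1), by 11 with limma on TPM and by 0 without A3B 48 or A3B 49. Cyp3a44 turned to 4.4 without control 45 (range up from -6.68), Kdm5d to -0.17 (up to 3.49) and Eif2s3y to 7.80 without control 168 (from -2.58), and none of these 3 was called. Per3, C6, Axin2, Me1, Mgll, Gstm4, Ugt1a9 and Mgst1, mentioned outside that rule, were not called with total-count scaling either. Of 42 pathway lists, 14 had a median below 0 with TMM and above 0 with total-count scaling: fatty acid oxidation, urea cycle, amino acid catabolism, gluconeogenesis, growth hormone and IGF axis, apolipoproteins, hepatocyte transcription factors, metallothionein and iron, NRF2 targets, ER folding, heat shock, DNA damage response, respiratory chain and periportal genes.

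By shares of TPM the difference in secreted proteins was -7.40 points and no longer at the smallest p, that of processed pseudogenes 1.07 likewise, and that of processed transcripts 0.534 reached it. With 1 liver left out, the difference ranged from -12.7 to -5.79 points for secreted proteins, -7.76 to -1.0 for major urinary proteins, -7.02 to -4.32 for the 10 most abundant genes, 0.189 to 0.443 for decay-annotated transcripts, 0.276 to 0.354 for processed pseudogenes, 0.339 to 0.521 for processed transcripts, 0.671 to 1.06 for retained introns and -0.669 to 0.0992 for transcripts with no gene, which turned positive without control 168. Without 1 control the exact permutation test cannot pass its threshold. In the second set (699 higher, 214 lower), no filter gave 39 and 15, and leaving out 1 liver 1 to 1362 higher and 0 to 511 lower, with 7 and 2 without control 92 and 43 and 12 without A3B 23.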
